A study of Arabidopsis thaliana with 74 samples.

Results

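The Arabidopsis epigenetic recombinant inbred lines (epiRILs) of the panel were ranked by the share of chromosome 1 pericentromere windows that had lost small RNA. The 9 lines with the largest and the 9 with the smallest share are compared here, with their 18 F1 epiHybrids, mainly on chromosomes 2 to 5. EpiRILs are inbred lines in the Col background, bred from a cross of a ddm1-2 mutant with Col wild type. Such lines carry a wild-type DDM1 allele and differ from each other in which stretches of each chromosome come from the hypomethylated founder. An epiHybrid is the offspring of 1 epiRIL used as pollen parent and of msCol, a Col line that is male-sterile through the ms1 mutation and that keeps a segment of Ler origin around MS1 on chromosome 5. A family is an epiRIL with its own epiHybrid, and msCol is represented by 2 libraries, msCol12 and msCol16. All libraries came from aerial rosettes 27 d after sowing, each pooled over plants of 1 line, so that a group is a set of 9 different lines and not of repeats of 1 line. The 36 libraries compared are part of 74 in the series.

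The ranking used windows of 200 bp in which both msCol libraries had at least 1 CPM (the count divided by the library total and scaled to a common size). Between 12.1 and 18.1 Mb of chromosome 1 there were 4878 such windows, and a window was called lost in a library that had at most 0.1 times the msCol mean. Of the 36 epiRILs, 34 were ranked by their share of lost windows and families 12 and 568 were left out. The 9 highest are called losing lines and the 9 lowest keeping lines, and the 16 in between are used for orientation. Because these shares chose the groups, they are given as a description only.

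In flowering plants, RNA polymerase IV, the RNA polymerase RDR2 and the nuclease DCL3 make small interfering RNAs from transposons and other repeats, and these RNAs guide DNA methylation back to matching sequences through RNA polymerase V and the methyltransferase DRM2. DDM1 is a chromatin remodeller that lets DNA methyltransferases reach the heterochromatin around the centromeres. Where ddm1 removes methylation, the loss can be inherited for many generations after DDM1 has been restored, and it can go along with a loss or a gain of small RNA. Small RNA is also able to act on identical copies at other places in the genome, which can tie repeats on different chromosomes to each other.

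The losing lines covered a wide range. On chromosome 1 the epiRILs of families 79, 574, 579 and 467 had lost 20.9%, 19.5%, 18.5% and 17.8% of the windows, those of families 50 and 128 had lost 13.0% and 10.6%, and those of families 176, 503 and 424 had lost 5.90%, 4.82% and 4.47%. The line just outside the group, family 469, had lost 70 windows, against 218 windows in family 424. The keeping lines had lost between 17 windows (family 330) and 29 windows (family 393), or 0.349% to 0.595%. Family 334, just outside the keeping group, had lost 29 windows as well, and the tie with family 393 was decided by family number. The 16 lines between thus lay close to the keeping lines.

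The stretch of chromosome 1 that had lost small RNA was not the same in the 9 losing lines. Between 13 and 16 Mb, the epiRILs of families 176 and 424 had lost at most 0.651% of the windows of any 1-Mb bin, against 8.88% to 22.3% in families 79, 574, 579 and 467. Bins in which all 9 lines had lost windows lay further out. Between 9 and 10 Mb, at least 10.2% of 205 windows were lost in every losing epiRIL, against at most 0.976% in any keeping epiRIL, and between 19 and 20 Mb the losing epiRILs had lost 11.1% to 15.6% of 289 windows, against at most 1.04%. Windows also gained small RNA. Of 11595 chromosome 1 pericentromere windows in which both msCol libraries had at most 0.1 CPM, 0.216% to 1.29% had at least 1 CPM in the losing epiRILs, against 0.181% to 0.285% in the keeping epiRILs.

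The summed level of the chromosome 1 pericentromere was not lower in the losing lines. Relative to msCol it was 113% to 141% in the losing epiRILs (median 122%) and 105% to 135% in the keeping epiRILs (median 113%). These ranges overlapped, and they are given without a test because chromosome 1 of the epiRILs chose the groups.

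Whether lines that lost small RNA on chromosome 1 had also lost it elsewhere was asked for the other 4 pericentromeres, each taken as 3 Mb on either side of the centromere midpoint. Windows that share sequence with chromosome 1 were not left out, and reads from identical copies cannot be told apart. The tests on these 4 pericentromeres are thus not fully independent of the ranking. On chromosome 4 every losing epiRIL had lost more windows than any keeping epiRIL. The share was 3.36% to 12.7% in the losing epiRILs (mean 6.41% ± 3.09) and 0.165% to 0.643% in the keeping epiRILs (mean 0.382% ± 0.155, SD, n = 9 each). The exact two-sided permutation test over the 18 lines gave p = 4.11e-05, the smallest p that 9 against 9 lines allow, and 0.000165 after Benjamini-Hochberg adjustment over the 4 chromosomes. With 12 against 12 lines the difference on chromosome 4 was 3.49 percentage points and did not pass (permutation test, adjusted p = 0.0701).

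On chromosomes 2 and 3 the groups overlapped. The losing epiRILs had lost 1.90% to 5.58% of the chromosome 2 windows (mean 3.56% ± 1.14), against 0.117% to 7.68% in the keeping epiRILs (mean 1.23% ± 2.43, exact permutation test, adjusted p = 0.0415). For chromosome 3 the means were 9.05% ± 7.30 in the losing and 2.55% ± 4.64 in the keeping epiRILs (adjusted p = 0.0438, exact permutation test). Both calls were lost when 1 library was left out in many cases, for example without the losing line 574 (differences of 2.22 and 4.81 percentage points, with adjusted p = 0.0666 and 0.102 in the exact permutation test). The keeping values were low except in family 158 on chromosome 2 (7.68%) and family 379 on chromosome 3 (14.4%), so that 8 of 9 keeping lines lay below every losing line on chromosome 2.

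The difference on chromosome 5 did not pass the test. The losing epiRILs averaged 4.97% ± 5.54 lost windows and the keeping epiRILs 3.57% ± 5.31 (SD, n = 9 each, exact permutation test, adjusted p = 0.568). The keeping lines 241, 330 and 219 had lost 15.5%, 7.52% and 6.55% of this pericentromere. The median line still differed, with 3.03% in the losing and 0.501% in the keeping epiRILs. The medians on chromosomes 2, 3 and 4 were 3.24%, 3.84% and 5.84% in the losing epiRILs, against 0.384%, 0.674% and 0.331% in the keeping epiRILs. Losses above 10% occurred in both groups on chromosomes 3 and 5. Of the 2 groups, only the losing group had such losses on chromosome 4, and neither had them on chromosome 2. Some lines between had them on each of chromosomes 2 to 5.

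**Figure D1:**
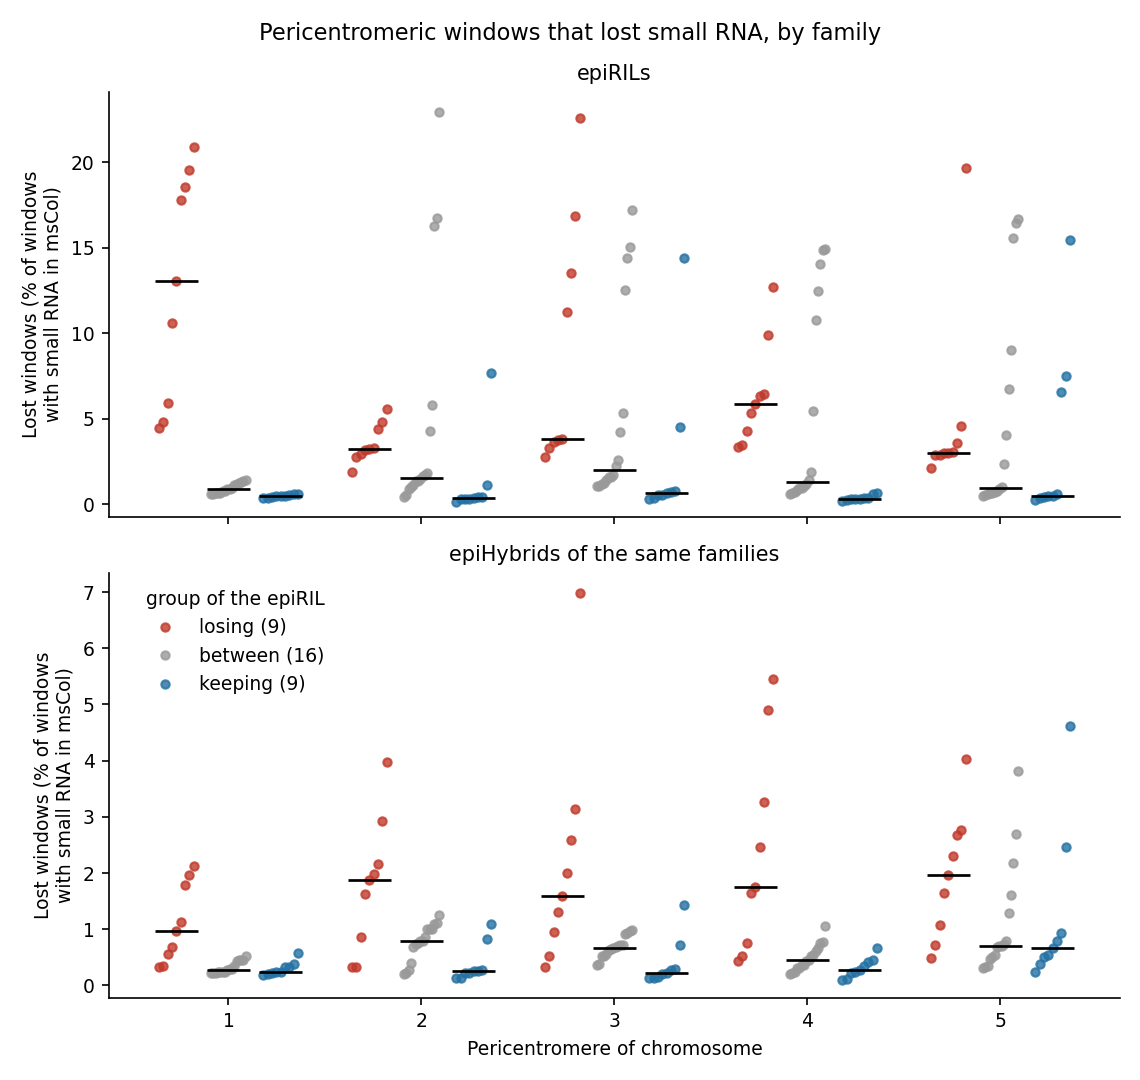
Share of pericentromere windows that had lost small RNA, in % of windows with small RNA in both msCol libraries, for each chromosome (x axis), in epiRILs (top) and in epiHybrids of the same families (bottom). Each point is a library, coloured by the group of the epiRIL, and black lines are medians. Chromosome 1 of the epiRILs chose the groups, and on chromosome 4 the 9 losing epiRILs lie between 3.36% and 12.7%, above all keeping epiRILs.

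Window by window, small RNA on chromosomes 2 to 5 was lower in the losing epiRILs more often than it was higher. By the quasi-likelihood F test of edgeR, at an adjusted p of at most 0.05 (Benjamini-Hochberg), 6397 of 136246 tested windows were lower (4.7% of the windows tested) and 1704 were higher (1.25%). The median log2 fold change, losing over keeping, was -1.82 among the lower windows and 1.32 among the higher ones, while over all tested windows it was 0.03. In these pooled rosettes, fewer cells with a small RNA and less of it per cell cannot be told apart. The total counts were 24515153 to 25988498 in the losing and 25804828 to 26777462 in the keeping epiRILs, and with library sizes as the only scaling 6502 windows were lower and 1331 higher. The counts depended on the lines and the model: 3777 were lower and 415 higher with 6 against 6 lines, 1028 and 434 with 12 against 12 lines, and 6431 and 3815 with the lost share of the window's own chromosome as a covariate. Similar totals need not be the same windows. With that covariate, 4265 of the 6397 lower windows (66.7%) and 747 of the 1704 higher windows (43.8%) were called again.

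The lower windows lay mostly in the pericentromeres. Of 82642 pericentromere windows tested, 5752 were lower (6.96%) and 1017 higher, and of 53604 arm windows 645 were lower (1.20%) and 687 higher. The 4 pericentromeres were alike in this, with 1595, 1532, 1356 and 1269 lower windows on chromosomes 2, 3, 4 and 5. They were dense in a few places. Between 2 and 3 Mb of chromosome 2, 966 of 3949 windows were lower (24.5%) and 8 higher, and between 14 and 15 Mb of chromosome 3, 731 of 4355 (16.8%) and 20 higher. Between 10 and 11 Mb of chromosome 5, 437 of 3627 windows were lower (12.0%). A place outside the pericentromeres as defined here was the chromosome 2 stretch between 7 and 8 Mb, with 177 of 1324 windows lower (13.4%). The bin with most higher windows was that between 3 and 4 Mb of chromosome 4, where 157 of 4492 windows were higher and 310 lower.

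**Figure D2:**
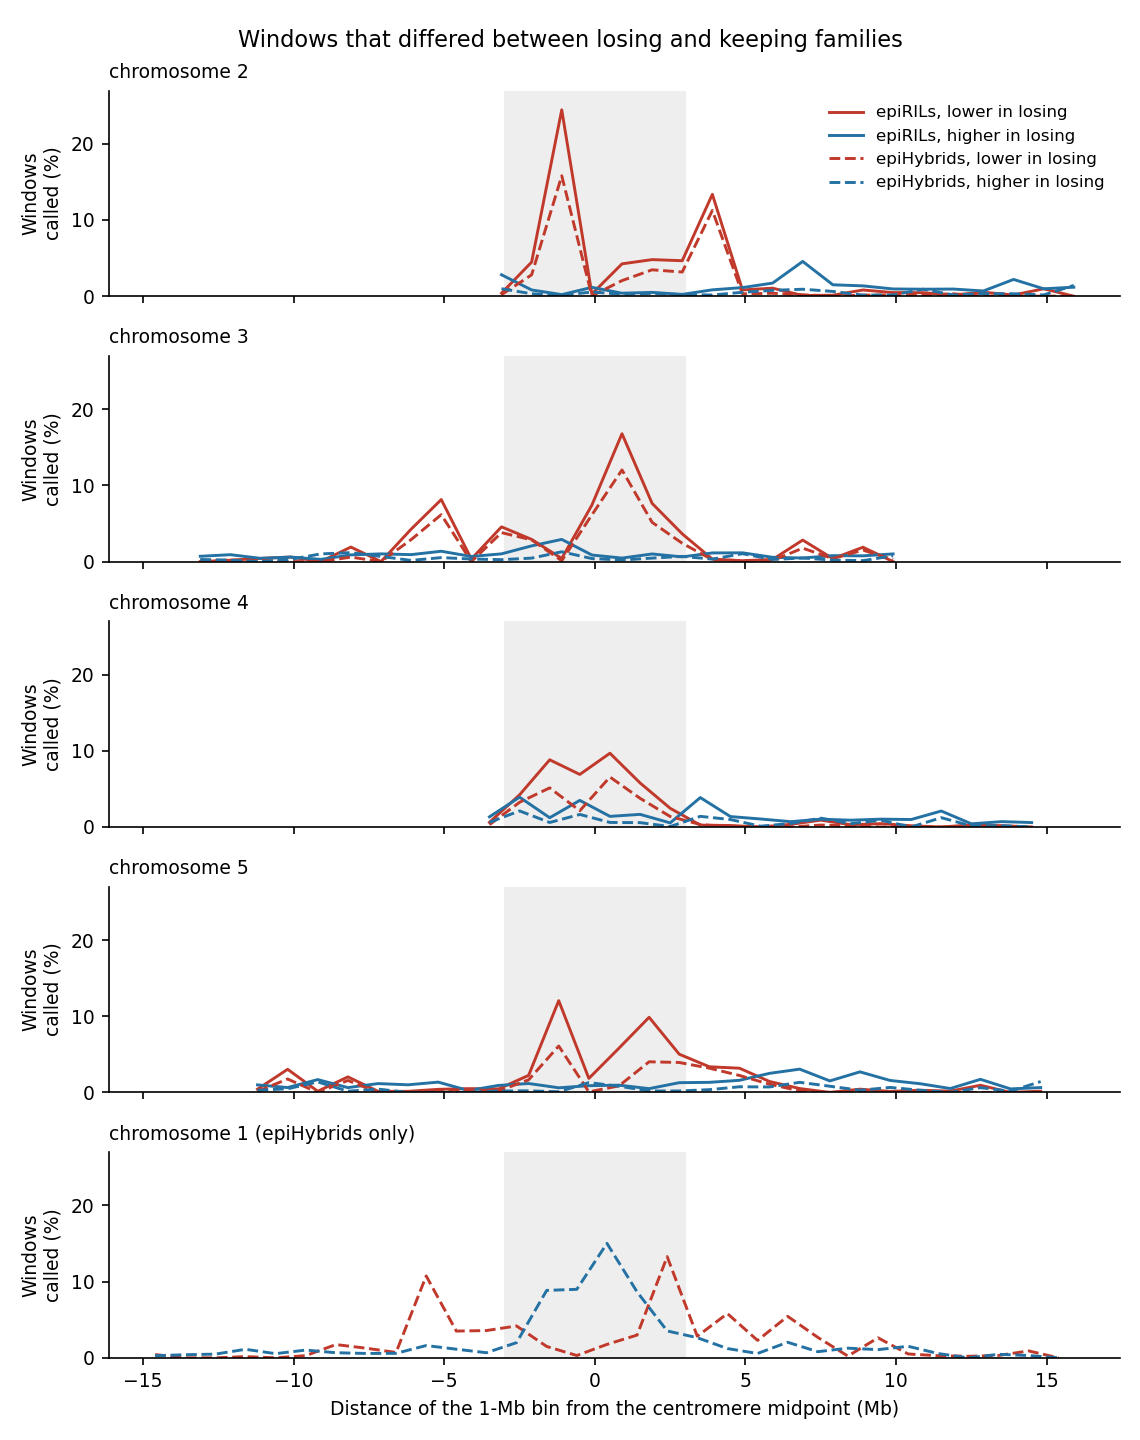
Percent of tested windows called lower (red) or higher (blue) in losing than in keeping families (edgeR, adjusted p at most 0.05) in 1-Mb bins, against the distance of the bin from the centromere midpoint in Mb. Solid lines are epiRILs and dashed lines epiHybrids, grey marks 3 Mb on either side of the midpoint, and bins with fewer than 20 tested windows are left out. Lower windows peak on chromosome 2 at 24.5% in the epiRILs, and in the chromosome 1 epiHybrids higher windows peak at the centromere with 15.0%.

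Annotated pseudogenes were the largest class among the lower windows. The annotation used here names no transposable elements and enters many transposon-derived genes of Arabidopsis as pseudogenes. Of the 6397 lower windows, 3463 overlapped a pseudogene (54.1%, against 29.2% of all tested windows), 2484 were intergenic (38.8% against 40.2%) and 340 lay in exons of protein-coding genes (5.32% against 27.3%). Among the 1704 higher windows, 454 overlapped a pseudogene (26.6%) and 922 were intergenic (54.1%).

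Since reads from repeats can fit several chromosomes, each window was cut into its 177 overlapping words of 24 bases, about the length of a small interfering RNA, and the words were looked up in the genome on both strands. Windows with copies in the part of chromosome 1 that chose the groups were called lower more often: 1643 of 20507 windows with at least 25% of their words in that part were lower (8.01%), 1671 of 24895 with a smaller share (6.71%) and 3083 of 90844 with none (3.39%). Windows with copies also lay more often in pericentromeres. Among pericentromere windows alone the shares were 8.45%, 7.66% and 6.06%. Of 48836 windows in which every word was unique in the genome, 1202 were lower and 436 higher. Of these, 1044 lower and 110 higher windows lay in pericentromeres, and 158 lower and 326 higher windows in the arms.

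At some windows the groups did not overlap. At 2482 (1.82% of the windows tested) every losing epiRIL was below every keeping epiRIL, and at 79 (0.058%) every losing epiRIL was above. At 1618 of the 136246 windows tested the 9 losing epiRILs were also below all 16 lines between. At 10 of them they were above all 25 other lines. With the 16 lines between in place of the losing lines, 42 of 136915 windows were lower and 1 was higher than in the keeping lines. With the 9 losing lines against the 16 lines between, 6483 of 137277 windows were lower and 1323 higher.

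Some of these windows had little or no small RNA in the losing lines and are called silent here. The word refers to small RNA alone, not to transcription. A group of 942 windows on chromosomes 2 to 5 had at least 20 normalised counts on average in the keeping epiRILs, at most 5% of that in the losing epiRILs, and counts in every losing epiRIL below those of all 25 other ranked epiRILs. This definition was set after the values had been seen and is a description. The silent windows made up 1.61% of the 58679 windows with that keeping level. Chromosomes 2, 3, 4 and 5 held 259, 265, 162 and 256 of them, 727 in pericentromeres and 215 in arms, and chromosome 1 held another 441. By annotation, 612 of the 942 lay in pseudogenes, 312 in intergenic space and 15 in exons of protein-coding genes. In 117 of them all 9 losing epiRILs had a count of 0.

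Summed over the 942 windows, the losing epiRILs had 0.828% to 3.49% of the mean level of the keeping epiRILs (median 1.34%). The 16 lines between had 83.8% to 117%, the keeping lines themselves 93.8% to 112%, and the msCol libraries 76.2% and 86.2%. The low values of the losing lines are what defined these windows. Families 176, 503 and 424, which had lost least of chromosome 1, are among those lines, with 288, 235 and 218 lost windows in the ranking. By the same definition 245 windows of the chromosome 1 pericentromere were silent. How many of them were counted in the ranking was not determined, so the values of these families are not independent of the rule.

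The silent windows shared sequence across chromosomes. Of the 942, 858 (91.1%) held at least 1 word of 24 bases that also occurred in a silent window of another chromosome, with a median of 55.9% of the words, and 749 (79.5%) held a word found in a silent window of chromosome 1. Of the 57737 other windows on chromosomes 2 to 5 with the same keeping level, 417 (0.722%) held a word of a silent window of another chromosome. Windows that hold the same words can share reads, and so can enter the silent list together. The contrast is thus a description and not a test. How often other repetitive windows share words across chromosomes was not determined. How reads that fit several of these copies were placed is not given in the sources used here, and reads from identical copies cannot be told apart. The 5 words below recurred in more silent windows than other words did and are printed as examples of sequence shared between chromosomes. Each was found in 13 to 16 silent windows, a small part of them, and is given 5′ to 3′ on the strand given in TAIR10.1.
word 1 (chr2:7290532-7290555, minus strand): CAAATGTTGATGAAAATAATGAGG
word 2 (chr2:7290711-7290734, plus strand): ACAGGAGGGCGTTTAGTATCTATC
word 3 (chr2:7294434-7294457, minus strand): ACATTGGTACAAACCATGTTGACA
word 4 (chr2:7293634-7293657, minus strand): CACTCACCGACCATAGTAAATACG
word 5 (chr2:2049322-2049345, minus strand): ACATCCGGACGGTAGACAATGTCT

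Word 1 occurred 26 times in the genome and in 17 windows with a keeping mean of at least 20 counts, of which 16 were silent in the losing lines, on all 5 chromosomes. For word 2 these were 16 windows, of which 15 were silent, and for word 3 all 15 of 15. Word 4 had 14 of 16 and word 5 had 13 of 14. Silent windows with word 5 lay on chromosomes 1 to 4 and those with the other words on all 5 chromosomes.

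The window chr3:8843601-8843800, in the pseudogene AT3G24365 of a chromosome arm, shows the pattern most clearly. Of its 177 words, 153 also lay in silent windows of chromosomes 1, 2, 4 and 5, and these are in capitals here, with the bases given 5′ to 3′ on the plus strand.
chr3:8843601-8843800: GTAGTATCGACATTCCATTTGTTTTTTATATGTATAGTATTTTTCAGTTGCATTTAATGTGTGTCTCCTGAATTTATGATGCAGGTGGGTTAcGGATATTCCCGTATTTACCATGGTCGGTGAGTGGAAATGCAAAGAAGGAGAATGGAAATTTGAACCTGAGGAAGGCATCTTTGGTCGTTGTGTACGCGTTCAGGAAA

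All 9 losing epiRILs had a count of 0 in this window. The keeping epiRILs had 149 to 307 normalised counts (median 202), the lines between 137 to 231, and msCol12 and msCol16 had 185 and 196. The fitted log2 fold change was -10.70 (edgeR, adjusted p = 9.85e-10), a value that depends on the prior count because 1 group is at 0. Of the 177 words, 153 also occur in the part of chromosome 1 that chose the groups. The reads of this window need not come from chromosome 3, so that its test is not independent of the ranking. The epiHybrids of losing lines varied. Those of families 79, 176 and 50 had 142, 75.3 and 48.1 counts, those of families 128 and 574 had 15.7 and 15.1, and those of families 579, 467, 503 and 424 had 0, against 124 to 318 in the epiHybrids of keeping lines (log2 fold change -2.84, edgeR, adjusted p = 0.0342). The msCol chromosome that these plants had received came from a parent with small RNA at this window. The difference between generations was 7.78 on the log2 scale (edgeR, adjusted p = 1.48e-05).

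A second window of this kind, chr3:15331401-15331600, lies 455 bp from the pseudogene AT3G43390 and is mostly unique, with 31 of 177 words found in silent windows of chromosomes 4 and 5 (in capitals).
chr3:15331401-15331600: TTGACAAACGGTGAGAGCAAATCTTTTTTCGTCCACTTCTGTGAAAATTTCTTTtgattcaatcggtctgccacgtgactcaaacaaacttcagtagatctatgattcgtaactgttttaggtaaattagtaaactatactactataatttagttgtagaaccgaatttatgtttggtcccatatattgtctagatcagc

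Here too the losing epiRILs were all at 0, against 80.4 to 191 counts in the keeping epiRILs (median 153). The epiHybrids of the losing lines had 0.992 to 49.5 counts (median 3.24), with the highest in family 176, against 89.6 to 216 in the epiHybrids of the keeping lines. The log2 fold change was -10.19 in the epiRILs (edgeR, adjusted p = 1.92e-09) and -3.33 in the epiHybrids (edgeR, adjusted p = 0.000845). The groups overlapped in neither generation, and the difference between generations was 6.76 (edgeR, adjusted p = 8.05e-05).

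The silent windows touched 123 annotated loci, of which 104 are pseudogenes and 12 protein-coding genes. The pseudogene AT3G42580 (chromosome 3, 14690821 to 14695927) had 20 silent windows among 26 tested, and its windows summed to 6.77 to 47.3 counts in the losing epiRILs, against 456 to 798 in the keeping epiRILs. AT4G08880 (chromosome 4, 5685011 to 5691313) had 20 of 32, with 5.11 to 27.8 counts in the losing and 1040 to 1610 in the keeping epiRILs. AT4G08890, its neighbour, had 17 of 21, with 1.93 to 41.7 against 1450 to 2360 counts. On chromosome 2, AT2G16180 (7014473 to 7019440) had 18 of 26, with 11.2 to 60.3 counts in the losing and 1130 to 1910 in the keeping epiRILs. The pseudogene with most silent windows, AT4G03300 (21 of 44), kept more, at 117 to 513 counts in the losing epiRILs against 2590 to 3460. These loci were picked for their silent windows, so that the gap between the groups is part of how they were chosen.

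The epiHybrid libraries were not used in the ranking, but each epiHybrid is the offspring of a ranked epiRIL. Their tests of the same contrast are thus not independent of the ranking. On chromosomes 2 to 5, 3894 windows were lower in the epiHybrids of losing lines (2.86% of 136246) and 770 were higher (0.565%), with edgeR at an adjusted p of 0.05. In the pericentromeres 3455 were lower and 490 higher, and 2183 of all lower windows lay in pseudogenes (56.1%). Windows with copies in the part of chromosome 1 that chose the groups were again lower more often. The share was 5.27% with at least 25% of their words in that part, 3.84% with a smaller share and 2.05% with none. Among pericentromere windows alone these shares were 5.40%, 4.33% and 3.63%. Both generations shared 3004 lower windows, which is 47.0% of the epiRIL list and 77.1% of the epiHybrid list. They shared 343 higher windows, 20.1% of the epiRIL and 44.5% of the epiHybrid list. Here too the counts moved with the lines and the model, to 1390 lower and 125 higher with 6 against 6 lines, 432 and 168 with 12 against 12 lines, 2557 and 687 with the own-chromosome covariate, and 7207 and 2274 against all 25 other families. With the own-chromosome covariate, 2106 of the 3894 lower windows (54.1%) and 273 of the 770 higher windows (35.5%) were called again.

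The generations were also compared window by window. Of the 6397 windows that were lower in the losing epiRILs, 6323 had the same sign in the epiHybrids, where their median log2 fold change was -1.10, against -1.82 in the epiRILs that chose these windows, which by itself favours the larger value there. With a test of the difference between generations that kept each family as a block, 428 windows (0.314%) had a less negative or more positive effect in the epiHybrids and 5 (0.00367%) the opposite. Of the 428, 420 were windows called lower in the epiRILs, and 311 lay in pericentromeres. At most windows the design did not separate the effects of the 2 generations.

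The epiHybrids differed widely at the 942 silent windows, where every losing father had almost no small RNA. Relative to the mean of the keeping epiHybrids, the summed level was 55.6% in family 79, 36.9% in family 176, 25.3% in family 50 and 12.4% in family 128. In the remaining 5 epiHybrids it was 6.44% (family 574), 4.33% (467), 2.87% (503), 1.89% (424) and 1.62% (579). The keeping epiHybrids had 91.1% to 110% and those of the lines between 88.2% to 115%. Set against the mean of both parents, the level was 134% in family 79, 88.5% in family 176 and 60.4% in family 50, and 3.90% to 29.6% in the other 6, against 103% to 118% in the keeping families. In 6 of 9 families the epiHybrid was thus far below the mid-parent value, although its msCol parent had small RNA at these windows. The windows were chosen on the fathers, so these values describe the offspring and are given without a test. At the 441 silent windows of chromosome 1 the epiHybrids of losing lines had 7.16% to 58.6% of the keeping mean.

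**Figure D3:**
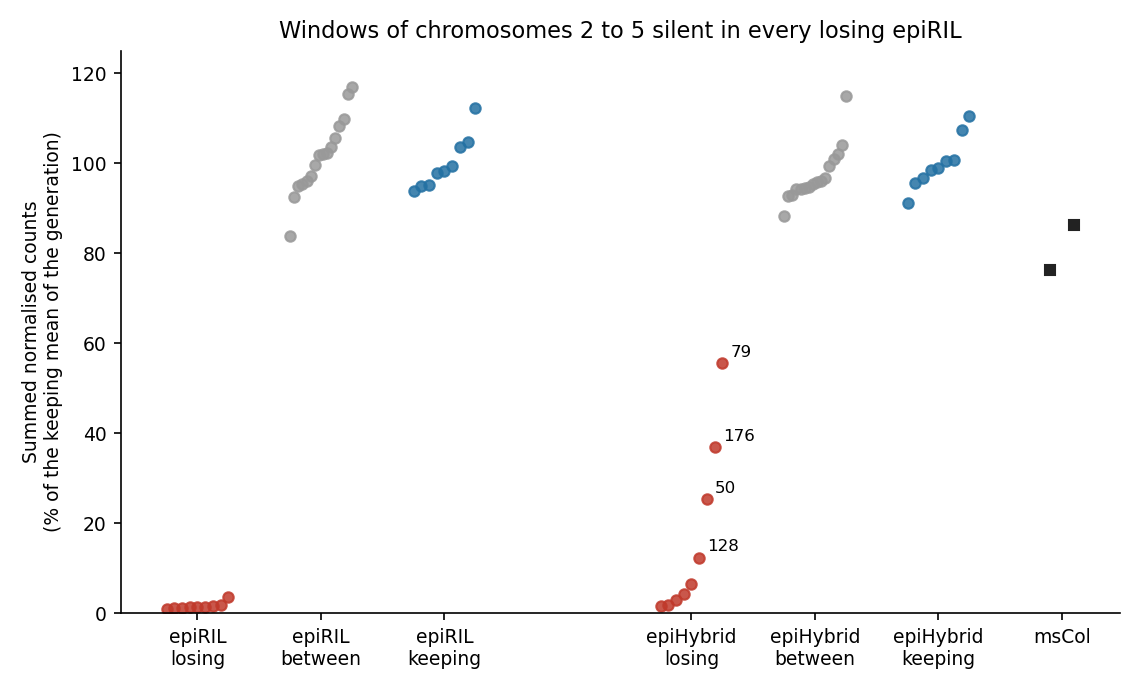
Summed normalised counts of the 942 windows on chromosomes 2 to 5 that were silent in every losing epiRIL, as a percent of the mean of the keeping libraries of the same generation (msCol against the keeping epiRILs). Each point is a library, sorted by value within its group, and numbers name families. The losing epiRILs lie between 0.828% and 3.49% and their epiHybrids between 1.62% and 55.6%, with families 79, 176, 50 and 128 highest.

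Lost windows could also be counted in the epiHybrids by the same rule. On chromosome 1 these are the windows that chose the groups. Since each epiHybrid is the offspring of a ranked epiRIL, the tests are not independent of the ranking. In the chromosome 4 pericentromere 0.441% to 5.45% of windows were lost in epiHybrids of losing lines (mean 2.36% ± 1.85) and 0.0918% to 0.661% in those of keeping lines (mean 0.314% ± 0.181, SD, n = 9 each, exact permutation test, adjusted p = 0.00144 over 5 chromosomes). The means were 1.10% and 0.303% on chromosome 1 (adjusted p = 0.00278, exact permutation test), 1.78% and 0.378% on chromosome 2 (adjusted p = 0.0037) and 2.16% and 0.395% on chromosome 3 (adjusted p = 0.00381), each with the losing lines given first. Chromosome 5 did not pass the test, at 1.96% ± 1.13 against 1.24% ± 1.43 (exact permutation test, adjusted p = 0.256, n = 9 each), and without the keeping family 241 it did (difference of 1.15 percentage points, adjusted p = 0.0251, exact permutation test). Families 503 and 579 had the largest shares of the 9 on chromosome 1, at 2.13% and 1.97%, and family 79, whose father had lost the most, had 0.328%.

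Several of the largest increases in the losing group rested on 1 family. AT5G19240 had 2720 counts and NF-YC5, a subunit gene of the nuclear transcription factor Y, had 1030 counts in the epiRIL of family 50, while the medians of the 9 losing lines were 1.07 and 0. The epiHybrid of family 79 alone had 5630 counts at the folate transporter gene FOLT1 and 1340 counts beside AT3G16850, with at most 2.62 counts in the other 8 epiHybrids of losing lines. In an exon of AT4G32375, families 574, 503 and 579 had 231, 220 and 51.1 counts in their epiRILs, against 0 in all 9 keeping epiRILs, and the epiHybrid of family 503 had 171. FUT4, a fucosyltransferase gene, had 1500 counts in the epiRIL and 643 in the epiHybrid of family 424, and at most 4.58 in any other losing or keeping library. The adjusted p (edgeR, epiRILs) was 0.000278 for AT5G19240, 0.00823 for NF-YC5, 0.0411 for AT4G32375 and 0.00142 for FUT4.

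A few increases were shared by 3 losing families. At chr3:15344601-15344800, 515 bp from AT3G43420, every word of which is unique, the epiRILs of families 579, 574 and 503 had 2910, 2400 and 2100 counts and the other 6 had 2.21 to 15.8, against 0.982 to 24.6 in the keeping epiRILs and up to 2410 among the lines between (log2 fold change 7.18, edgeR, adjusted p = 0.00521). Their epiHybrids had 716, 338 and 1480 counts, against at most 11.2 in those of keeping lines (log2 fold change 6.20, edgeR, adjusted p = 0.00941). Near AT4G06220, an RNA gene on chromosome 4, the epiRILs of families 176, 128 and 424 had 6680, 5930 and 5040 counts and their epiHybrids 643, 1520 and 3760. In the keeping group the epiRIL of family 125 reached 510 counts and no epiHybrid exceeded 11.4. For this window the difference was called in the epiHybrids (log2 fold change 7.80, edgeR, adjusted p = 0.00289) and not in the epiRILs (log2 fold change 5.01, edgeR, adjusted p = 0.115).

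Some of the largest decreases likewise rested on part of the keeping lines. The window chr2:4222201-4222400, 147 bp from the long non-coding RNA gene AT2G05555, was at 0 in both msCol libraries and in all losing libraries of both generations. In the keeping epiRILs of families 125, 219, 275 and 379 it had 1500, 1450, 928 and 821 counts and in the other 5 it had 0, and among the lines between it reached 2360. The epiHybrids of families 125, 330 and 379 had 2150, 1480 and 1260 counts, so that families 219, 275 and 330 had small RNA in 1 generation only. Near LBD29, a gene for a LOB-domain transcription factor, the keeping epiRILs of families 158, 241, 368 and 275 had 903, 869, 814 and 609 counts and the other 5 at most 1.96, against at most 5.36 in the losing epiRILs. Among the named windows that were lower in both generations, that of the pseudogene AT4G08880 (chr4:5688601-5688800) was at 0 in all 18 losing libraries, with 5.81 to 43.8 counts in the keeping epiRILs and 0 to 42.7 in their epiHybrids (edgeR, adjusted p = 1.92e-05 in the epiRILs and 0.00451 in the epiHybrids). Of the 177 words of this window, 97 also occur in the part of chromosome 1 that chose the groups, and 89 of those of chr2:4222201-4222400 do. The windows with the largest decrease in the epiHybrids alone were those of the tRNA genes AT3G52765 and AT2G33940, where the epiRILs of losing lines reached 646 and 122 counts. The window of AT2G33940 also overlaps NUDT22, and reads of the 2 genes cannot be told apart.

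**Figure D4:**
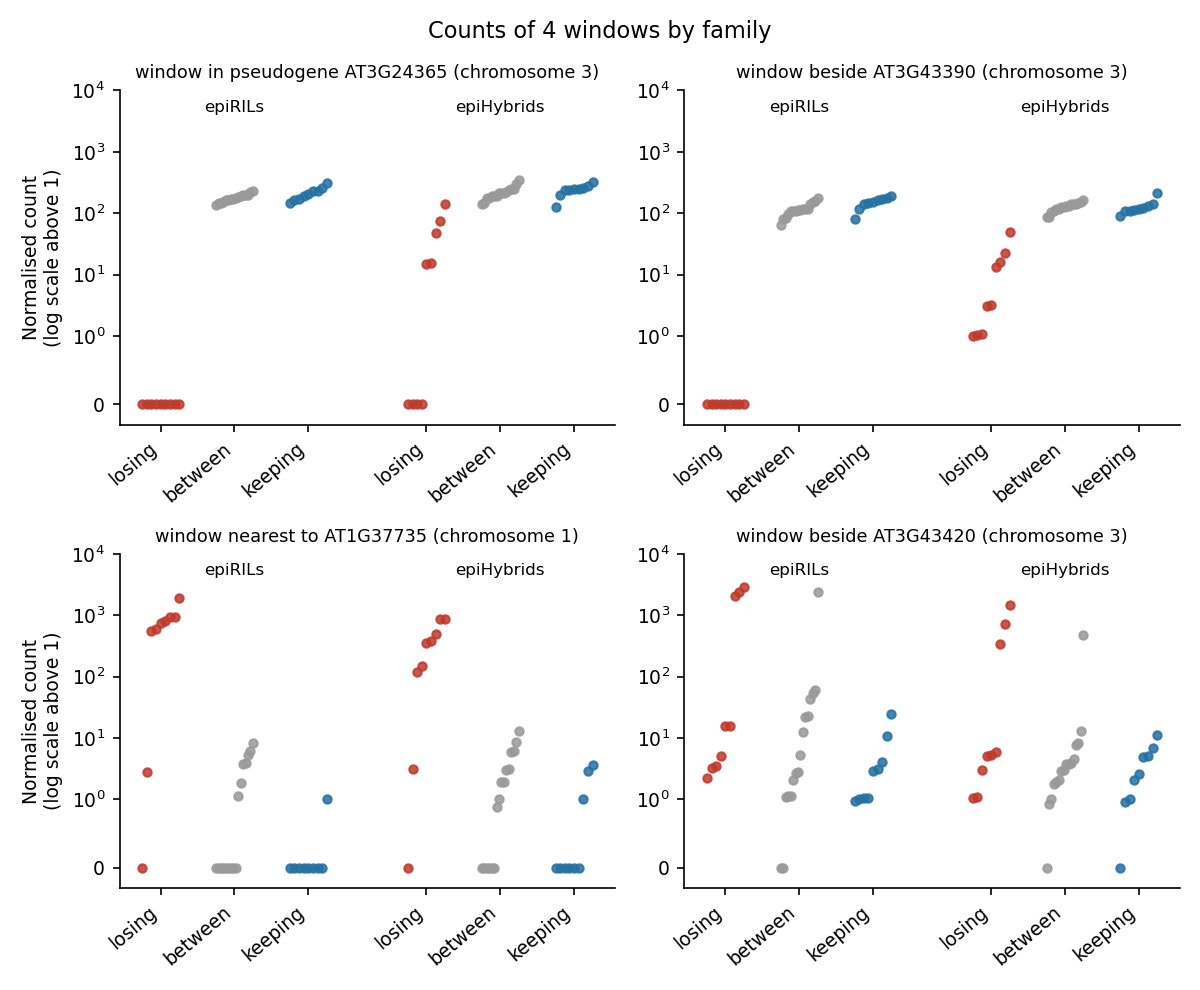
Normalised counts (log scale above 1, with 0 shown) of 4 windows in losing, between and keeping families, epiRILs left and epiHybrids right in each panel. Each point is a library. The window of AT3G24365 and that beside AT3G43390 are at 0 in all 9 losing epiRILs, the window nearest to AT1G37735 is high in 7 of 9 losing families, and the window beside AT3G43420 is high in 3 of them.

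On chromosome 1 only the epiRIL libraries chose the groups, and the epiHybrids were tested there. Each epiHybrid inherited its paternal chromosome 1 from a ranked epiRIL, so that this test is not independent of the ranking. Small RNA was higher in the epiHybrids of losing lines at 1796 of 37566 windows (4.78%) and lower at 994 (2.65%), by edgeR at an adjusted p of 0.05. Higher windows lay at the centromere: 1606 of them were in the pericentromere, with 571 between 15 and 16 Mb (15.0% of the windows there). Of the lower windows 549 lay in the pericentromere (3.04% of those tested there) and 445 in the arms (2.28%). Their share was highest between 17 and 18 Mb (222 windows, 13.3%) and between 9 and 10 Mb (100 windows, 10.8%), and the 4 bins from 13 to 17 Mb held 58, 10, 67 and 103. The ranking counted windows with small RNA in msCol only, whereas this test took in all windows with enough counts. The higher windows were repetitive, with a median of 48.0% of their words unique in the genome, against 81.9% in the lower windows, and 1215 of them were intergenic (67.7%).

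The strongest shared increase was at chr1:14255001-14255200, 1871 bp from the pseudogene AT1G37735. It is shown because 150 of its 177 words, in capitals, also lie on chromosomes 2 to 5, so that its reads need not come from chromosome 1.
chr1:14255001-14255200: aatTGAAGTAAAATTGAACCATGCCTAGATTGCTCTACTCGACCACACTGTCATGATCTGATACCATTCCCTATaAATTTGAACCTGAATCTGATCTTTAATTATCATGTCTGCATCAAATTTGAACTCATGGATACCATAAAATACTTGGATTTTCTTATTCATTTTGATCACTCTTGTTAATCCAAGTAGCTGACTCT

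Both msCol libraries were at 0 in this window. The epiHybrids of families 503, 128, 579, 50, 574, 467 and 79 had 869, 857, 494, 378, 349, 149 and 118 counts, and those of families 176 and 424 had 3.10 and 0, against 0 to 3.64 in the epiHybrids of keeping lines (log2 fold change 8.61, edgeR, adjusted p = 1.26e-06). Their fathers were alike, with 554 to 1910 counts in the same 7 families and 0 and 2.78 counts in families 176 and 424, against at most 1.02 counts in the keeping epiRILs. Families 176 and 424 are those whose epiRILs had lost almost no window between 13 and 16 Mb, the stretch in which this window lies. Of the other windows named on chromosome 1, the pseudogenes AT1G27815 and AT1G34710 were at 0 in all 9 epiHybrids of losing lines, against 1.94 to 66.8 and 0 to 48.9 counts in those of keeping lines (edgeR, adjusted p = 0.000153 and 0.00598). The increases near AT1G26620 and in an intron of BPC2 came from the epiHybrid of family 79, with 3340 and 930 counts.

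Summed over whole compartments, small RNA passed the test in 1 case. Of 8 compartments on chromosomes 2 to 5 the arms of chromosome 2 differed in the epiRILs, with 82.5% to 89.0% of the msCol level in the losing (mean 85.6% ± 2.27) and 74.7% to 83.4% in the keeping lines (mean 79.5% ± 3.11, SD, n = 9 each, exact permutation test, adjusted p = 0.00165). The ranges overlapped, and the call was lost with 6 against 6 lines (adjusted p = 0.0519), 12 against 12 lines (0.252) and TMM scaling (0.0875, permutation tests). Without windows of annotated small and structural RNA genes this difference was 2.84 percentage points (adjusted p = 0.178, exact permutation test). With those windows left out the chromosome 2 pericentromere was 12.3 percentage points lower in the losing than in the keeping epiRILs (adjusted p = 0.0145, exact permutation test), while with them the means were 109% ± 11.0 in the losing and 110% ± 11.3 in the keeping epiRILs. In the epiHybrids none of 10 compartments passed, and the chromosome 1 pericentromere had 120% ± 8.45 in those of losing and 112% ± 9.31 in those of keeping lines (exact permutation test, adjusted p = 0.407, n = 9 each).

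The mid-parent divergence of the epiHybrids, (epiHybrid - mid-parent value) / mid-parent value in percent from summed CPM, did not pass the test in any of the 4 pericentromeres. It came closest on chromosome 5, with 3.05% ± 6.51 in the losing and -7.70% ± 12.1 in the keeping families (exact permutation test, p = 0.0278, adjusted p = 0.111, n = 9 each). It passed there when the losing family 467 (difference of 12.7 points, adjusted p = 0.0248) or the keeping family 379 (12.9 points, adjusted p = 0.0239, exact permutation tests) was left out. On chromosome 2 the values were 6.13% ± 13.7 and 16.5% ± 13.3 (exact permutation test, adjusted p = 0.244). The differences on chromosomes 3 and 4 had adjusted p = 0.524 and 0.819 in the same exact permutation test.

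Genes that act in RNA-directed DNA methylation or in DNA methylation were looked up, as a list of 35 of which 32 were found in the annotation. CLSY2, CLSY3 and CLSY4 were not matched by name and are missing here. Windows within 1 kb of these genes could be tested for 20 genes on chromosomes 2 to 5 (76 windows) and 2 genes on chromosome 1 (5 windows). In the epiRILs 2 of the 76 windows were lower and 0 higher, which is 2.63%, near the 4.7% of all windows. They lie at CLSY1, a remodeller that brings RNA polymerase IV to its targets (log2 fold change -4.93, edgeR, adjusted p = 0.0175), and at DRD1, a remodeller that works with RNA polymerase V (log2 fold change -1.02, edgeR, adjusted p = 0.0136). In the epiHybrids 2 of the 76 windows were higher, 1 at CLSY1 and 1 at DML2, a DNA demethylase gene, and 0 were lower, beside 0.565% higher and 2.86% lower among all windows. The CLSY1 window called in the epiHybrids starts at 14761201 and is not the one called in the epiRILs, which starts at 14761001. No window of the list passed on chromosome 1. Small RNA at a gene says nothing of the level of its mRNA, which was not measured in these files.

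All libraries had the microRNA genes known from rosette leaves. MIR159A, MIR161, MIR166A and MIR168A had at least 2960 CPM in every library of the series, MIR163 had 324 to 1470 CPM and MIR156A 2.90 to 10.2 CPM, with overlapping ranges between losing and keeping lines in each case. No pair of the 36 libraries compared was a repeat of another. Each epiHybrid resembled its own father most, with a correlation of 0.235 (family 79) to 0.644 with its epiRIL in their deviations from the group means over 6813 windows.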

How the data were processed

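Small RNA of pooled rosettes was sequenced in 1 library per line. The authors ran ShortStack with default parameters and its MIRNA search disabled on TAIR10 and deposited raw read counts in regions of 200 bp, all read lengths together. The paper names a small RNA library preparation with molecular identifiers (UMI). Whether these were used in the counts, the ShortStack version and the placement of reads with several matches are not given in the sources used here. Deposited counts of the CHH regions were used at a step of 200 bp, so that windows do not overlap, and CG and CHG regions only as alternatives. Library totals were 20995764 to 26777462 counts (median 25742694) in the 36 libraries compared. CPM used these totals.

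Testing was limited to windows that averaged 2 counts or more over the 36 libraries, and was done with edgeR 4.0.16 (R 4.3.3, quasi-likelihood F test, TMM factors from chromosomes 2 to 5, Benjamini-Hochberg adjustment, threshold 0.05), without a block within a generation. Normalised counts are on the TMM scale. The difference between generations was fitted with the family as a block, since an epiHybrid is the offspring of its epiRIL: own pairs correlated at 0.235 to 0.644, and for 18 of 18 families no other epiRIL came closer. Single values were compared by exact two-sided permutation tests over families in SciPy 1.17.1, adjusted within each family of tests. P-values measure the spread between lines, each of which was sequenced once per generation.

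Named windows had an adjusted p of at most 0.05 and a mean of at least 20 normalised counts in the higher group, and were the 3 with the largest log2 fold change in each direction and comparison, at most 1 per 100 kb, plus the 3 per direction with the largest change in both generations. The groups, windows and gene lists were chosen with earlier results of these data known. Annotation and sequence came from RefSeq for TAIR10.1. Simulated data for 10000 windows with 200 changed gave back 18% of 2-fold and 88% of 4-fold changes in the epiRILs, and 41% and 92% in the epiHybrids. The changed windows were drawn in both directions among those with a mean of at least 5 counts, so these shares do not cover windows with fewer counts. DESeq2 1.42.0, other scalings, filters, group sizes and libraries left out were tried as alternatives.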

Additional observations from a re-analysis of the deposited data

Results flagged for a closer look

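In 10 of 62 groups of 9 values, 1 family stood apart from the other 8 by Dixon's criterion, which chance alone meets in about 1 group of 20. In the share of lost pericentromere windows of the epiRILs these were the losing family 467 on chromosome 5 (19.6%) and the keeping families 158 on chromosome 2 (7.68%), 379 on chromosome 3 (14.4%) and 241 on chromosome 5 (15.5%). In the epiHybrids they were the losing family 503 (6.99%) and the keeping family 275 (1.43%), both on chromosome 3. In the summed level relative to msCol they were the losing epiRILs of family 579 on chromosome 4 (135%) and family 467 on chromosome 5 (180%), and the keeping epiHybrid of family 393 on chromosome 1 (92.1%), all in pericentromeres. In the mid-parent divergence it was the losing family 467 on chromosome 5 (-12.8%).

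The losing against keeping difference was not the same in both generations at 428 windows, where it was less negative or more positive in the epiHybrids, and at 5 windows with the opposite sign of that difference (edgeR, family as a block, adjusted p at most 0.05). Of the windows described singly, chr3:8843601-8843800 had a difference between generations of 7.78 and chr3:15331401-15331600 of 6.76 on the log2 scale.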

How the results depend on the processing

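Median-of-ratios or library size scaling, a mean of at least 5 counts, no filter, DESeq2, another window phase and family 334 in place of the tied family 393 kept the counts of higher and lower windows on chromosomes 2 to 5 within 1.5 times. Counts alone do not show that the same windows were called. With 6 against 6 lines, 415 windows were higher and 3777 lower in the epiRILs and 125 and 1390 in the epiHybrids. With 12 against 12 lines these were 434 and 1028 in the epiRILs and 168 and 432 in the epiHybrids. CG regions gave 785 and 3670 in the epiRILs and 434 and 2455 in the epiHybrids, and CHG regions 730 and 3328, and 372 and 2277. Fewer windows were tested there, 66897 in CG and 70828 in CHG regions against 136246 in the main fit. With the lost share of the window's own chromosome as a covariate, 3815 windows were higher in the epiRILs (62.8% of calls were then lower, against 79.0%) and 2557 lower in the epiHybrids. With the chromosome 1 share as a continuous covariate 1426 windows were higher in the epiHybrids. Some alternatives were chosen after seeing the data. Against all 25 other lines, 2274 windows were higher and 7207 lower in the epiHybrids, and against the 16 lines between 1908 and 6393. Lines between against keeping lines gave 1 and 42 in the epiRILs and 1 and 6 in the epiHybrids. Without lines that had lost 6% or more of the chromosome's pericentromere, 979 windows were higher in the epiRILs, and 336 higher and 2424 lower in the epiHybrids. Without the family block, the difference between generations was positive at 427 and negative at 4 windows. The causes of these shifts were not tested.

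The epiRIL difference in lost windows, in percentage points with the adjusted p of the exact permutation test, was 2.08 (0.257) on chromosome 2 and 5.51 (0.257) on chromosome 3 with 6 against 6 lines. With 12 against 12 lines (permutation test) it was 3.78 (0.187) on chromosome 3 and 3.49 (0.0701) on chromosome 4. It was 3.32 (0.174) on chromosome 2 with loss at 0.2 times msCol, and 1.53 (0.256) and 7.47 (0.0584) on chromosomes 2 and 3 with pericentromeres of 2 Mb on each side. With 1 library left out it ranged over 2.07 to 3.13 on chromosome 2, 4.81 to 7.99 on chromosome 3 and -0.431 to 2.89 on chromosome 5, negative without family 467. The calls on chromosomes 2 and 3 were lost without any 1 of families 574, 50, 503, 393, 241, 368, 219, 275, 125 and 330 or msCol16, and that on chromosome 3 also without family 424, family 158 or msCol12. In the epiHybrids it ranged over 0.466 to 1.15 on chromosome 5.

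The summed level of the chromosome 2 arms in the epiRILs differed by 6.67 points (adjusted p = 0.0519) with 6 against 6 lines, 3.61 (0.252) with 12 against 12, 2.84 (0.178) without small and structural RNA windows and 7.32 (0.0875) with TMM (permutation tests). For the chromosome 2 pericentromere the values were 2.07 with 12 against 12 lines, -12.3 without those RNA windows and 1.53 with TMM, and -2.86 to 1.99 with 1 library left out. The chromosome 3 arms gave -0.192 with 12 against 12 lines and -1.26 without those RNA windows, and the chromosome 5 arms 2.63. In the epiHybrids the chromosome 1 arms gave 0.00264 with 6 against 6 lines, the chromosome 2 arms 0.20 without those RNA windows, and the chromosome 1 pericentromere 6.61 with TMM (adjusted p = 0.0239, exact permutation test). With 1 library left out the ranges were -4.21 to 1.52 (chromosome 1 arms), -0.918 to 2.93 (chromosome 3 arms), -1.45 to 0.412 and -4.34 to 0.772 (chromosome 3 and 4 pericentromeres). The mid-parent divergence differed by 1.33 on chromosome 2 without those RNA windows, and on chromosome 4 by -1.05 with TMM, -2.78 as a median over windows, -0.604 with family 334 and -1.29 to 2.06 with 1 library left out. On chromosome 5 it ranged over 7.13 to 12.9, and passed the test without the losing family 467 (12.7, adjusted p = 0.0248) or the keeping family 379 (12.9, adjusted p = 0.0239, exact permutation test).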

Other observations

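Gains of small RNA, counted as windows with at most 0.1 CPM in both msCol libraries and at least 1 CPM in the library, were also seen on other chromosomes. In the chromosome 3 pericentromere 0.138% to 0.772% of 8675 windows were gained in the losing epiRILs (median 0.357%) and 0.115% to 0.519% in the keeping epiRILs (median 0.242%). In the epiHybrids the medians were 0.438% for losing and 0.173% for keeping fathers. On chromosome 2 the medians of the epiHybrids were 0.187% in both groups. These values were not tested.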
